A study of Mus musculus with 10 samples.

Results

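Genes of the natriuretic peptides, of Nrg1-ErbB signalling and of other factors linked to trabecular growth, together with Penk, were followed in hearts without the coxsackie-adenovirus receptor (CAR). The set held 9 genes, Nppa, Nppb, Bmp10, Penk, Cited1, Nrg1, Erbb2, Erbb3 and Erbb4, of 19938 genes measured. Each was represented by a transcript cluster, a set of probes along the exons of a gene. Clusters that name several genes were set aside, and among the others the cluster of a gene was chosen by the highest mean log2 signal over all 10 samples, whatever their genotype. All 9 genes had 1 such cluster, so that this choice had no effect on their values. The genes themselves were picked with earlier results of these arrays known, and the levels are given as a description.

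RNA of E10.5 hearts was hybridised to Affymetrix Mouse Gene 1.0 ST arrays in 5 wild type (WT) and 5 CAR knockout (CAR KO) samples. Each sample held 3 pooled hearts of 1 genotype, from untreated embryos of matings between CAR +/- mice. The CAR KO embryos (line B6.Cg-Cxadr tm1/Fgr) lack CAR in all cells of the body, so that the heart was not the only tissue without it. Each genotype held 15 hearts, so that its samples were separate pools. The labels do not say whether these pools came from separate litters. The p-values measure the spread between the pools, and whether that spread covers separate litters is not known.

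Trabeculae are the muscle ridges that grow from the wall of the embryonic ventricle into its lumen. The endocardium secretes neuregulin 1, encoded by Nrg1, which acts on the receptor ErbB4 of the cardiomyocyte and on ErbB2, a partner receptor that binds no ligand itself. The growing trabeculae secrete natriuretic peptides and BMP10, a growth factor that keeps trabecular cardiomyocytes dividing.

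Of these genes, Nppa, the gene of atrial natriuretic peptide, and Nppb, the gene of brain natriuretic peptide, are neighbours on chromosome 4, Nppb from 147985786 to 147987205 and Nppa from 148000722 to 148002074 (RefSeq, GRCm38.p6), with 13516 bases between them. Bmp10 lies on chromosome 6 from 87428994 to 87434512. Sequence before an annotated start of each gene is shown because Nppa, Nppb and Bmp10 are secreted signals of the same muscle and the first 2 varied together between samples. RefSeq promoter windows were matched by symbol for 6 of the 9 genes (Nrg1, Erbb3 and Penk had no entry). The 250 bases before the start of Nppa (chr4:148000472-148000721, plus strand), the same stretch for Bmp10 (chr6:87428744-87428993, plus strand) and 27 bases of Nppb (chr4:147985795-147985821, plus strand) read 5′ to 3′ as follows, with matches to the motifs searched in capitals.
Nppa: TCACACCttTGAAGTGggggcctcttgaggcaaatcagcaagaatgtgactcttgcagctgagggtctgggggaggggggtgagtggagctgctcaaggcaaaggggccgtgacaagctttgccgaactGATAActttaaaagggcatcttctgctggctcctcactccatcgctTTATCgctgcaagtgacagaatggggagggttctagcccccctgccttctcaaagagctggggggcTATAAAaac
Nppb: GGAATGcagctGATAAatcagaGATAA
Bmp10: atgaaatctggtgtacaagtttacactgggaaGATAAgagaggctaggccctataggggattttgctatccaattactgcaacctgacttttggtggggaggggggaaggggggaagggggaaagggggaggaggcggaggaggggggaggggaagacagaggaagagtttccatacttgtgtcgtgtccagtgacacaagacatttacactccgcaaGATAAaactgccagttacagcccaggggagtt

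The letters searched on both strands were TCACACC for T-box factors and TNAAGTG for NKX2-5. For GATA factors they were GATAA, for the M-CAT element GGAATG, and for the TATA box TATAAA. No matches overlapped each other. Nppa held all of them but M-CAT, with 2 GATA matches. The shorter stretch of Nppb runs from its M-CAT match to the second of its 2 GATA matches. A TATA match of Nppb lies after it, 31 to 26 bases before the start used for its promoter window, and is not printed. That start lies after the gene start given above, so that the printed stretch lies within a transcript that starts earlier. Bmp10 held 2 GATA matches and none of the other motifs in this window. Of 32851 RefSeq promoter windows of 250 bases, 3.33% held the T-box letters, 10.1% the NKX2-5 letters, 22.6% the GATA letters, 12.6% the M-CAT letters and 12.4% the TATA letters. A match of letters is a description and does not show a bound site.

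The deposited log2 signals had a median per array of 7.65 to 7.73, their normalization is not known, and every mean below is followed by the SD over the 5 samples of a genotype (± SD, n = 5). Cxadr, the gene of CAR, had a log2 signal of 8.38 ± 0.18 in WT against 6.46 ± 0.17 in CAR KO samples, so that the arrays fit their labels. All 10 of 10 cardiomyocyte markers, such as Tnnt2 and Actc1, were above background. The background level was a log2 signal of 6.5, set from 1205 odorant and pheromone receptor clusters. All 9 genes lay above it in each of the 10 samples. Samples differed in transcripts of neighbouring tissue. The mean log2 signal of 13 liver and yolk sac markers spanned 7.40 to 9.27 across WT samples but 6.92 to 10.23 across CAR KO samples. For 9 foregut markers the spans were 7.49 to 8.24 and 7.57 to 8.38. CAR KO sample 5 was the highest for both and the lowest of all samples for 28.3% of the 14688 genes above background. WT samples 2 and 5 were the next highest for the liver list. Without all 3 of these samples the log2 difference (CAR KO minus WT) was -0.04 for Nppa, -0.05 for Nppb, -0.12 for Bmp10, -0.08 for Cited1 and -0.17 for Nrg1. For the receptors it was -0.0088 for Erbb2, -0.21 for Erbb3 and 0.07 for Erbb4.

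Of the 9 genes, 8 had a lower and 1 a higher mean log2 signal in CAR KO than in WT hearts, where 43.9% of all 28944 transcript clusters had a lower mean. That share covers clusters above and below background, whereas all 9 genes lay above it. The median log2 difference (CAR KO minus WT) of the 9 genes was -0.18, against 0.01 for all genes. None of the 9 passed an adjusted p under 0.05 from limma, where 0.00345% of all clusters, which is Cxadr alone, did so. An unadjusted p under 0.05 was found for 2 of the 9, Penk and Erbb3, and for 2.4% of all clusters. The methods' t-test called none of the 9 after Benjamini-Hochberg adjustment, and 1 of them, Penk, at an unadjusted p under 0.05. Without CAR KO sample 5 the lower mean held for 7 of the 9 genes and their median difference was -0.06. In a whole heart, fewer cells of a type and less RNA per cell cannot be told apart.

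**Figure D1:**
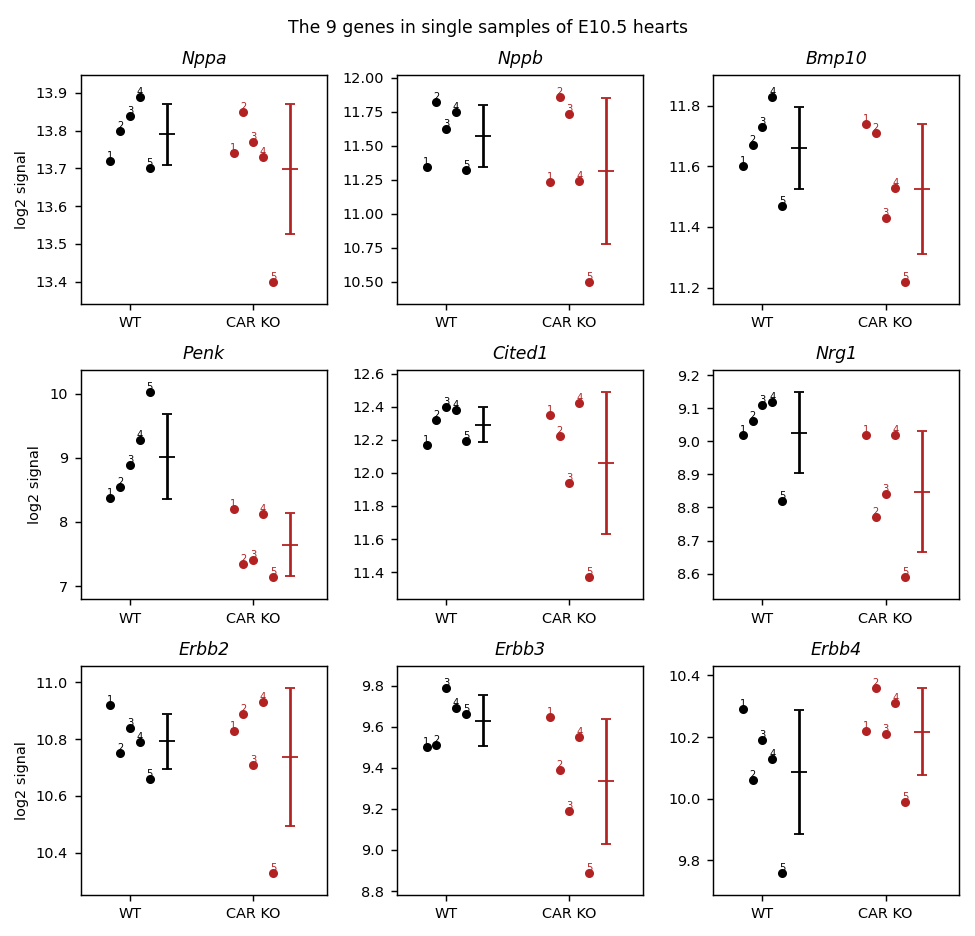
Log2 signal (vertical axis, scaled for each gene) of the 9 genes in single E10.5 heart samples, WT in black and CAR KO in red, with the sample number beside each point; bars show the mean and SD of 5 samples. Penk is the gene whose genotypes do not overlap, and CAR KO sample 5 is the lowest sample for every gene but Erbb4.

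Penk had the largest difference between the genotypes of the 9 genes. Over the 10 samples, as a description, it had a Pearson's r of 0.37 to Nppa, 0.23 to Nppb and 0.39 to Bmp10 (-0.09, -0.27 and 0.09 without CAR KO sample 5). It encodes proenkephalin, the precursor from which enkephalins, the endogenous opioid peptides, are cut, and it lies on chromosome 4 from 4133536 to 4138815. In WT samples 1 to 5 its log2 signal was 8.37, 8.55, 8.88, 9.27 and 10.02. In CAR KO samples 1 to 5 it was 8.20, 7.34, 7.41, 8.13 and 7.14. Every CAR KO sample lay below every WT sample, with CAR KO samples 1 and 4 close to WT sample 1 and the remaining 3 CAR KO samples well below. Genotypes that did not overlap were found for 0.359% of all clusters, and of the 9 genes for Penk only.

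The mean of Penk was 9.02 ± 0.66 in WT against 7.65 ± 0.49 in CAR KO samples. The log2 difference was -1.37 (standard error 0.31, 95% confidence interval -2.04 to -0.70), a signal 2.59-fold lower. The unadjusted p was 0.000824, and over all clusters the adjusted p from limma was 1. Among 14688 genes above background 1 had a larger decrease in mean signal than Penk, which was Cxadr. After Penk came Uty and Eif2s3y, genes of the Y chromosome, with log2 differences of -1.32 and -1.27 (unadjusted p from limma 0.042 and 0.0681). The labels do not give the sex of the pooled embryos, and its part in the values of the 9 genes was not tested. Penk also varied within the genotypes, and only 0.851% of the genes above background had a larger SD there. Without WT sample 5, the highest, the log2 difference was -1.12, without CAR KO sample 5 it was -1.24, and with all 3 liver-rich samples left out it was -1.07. The difference of Penk is a description, since its values were known when it was chosen.

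Markers of the epicardium, the cell layer that covers the heart, had lower means in CAR KO hearts, as Penk did. All 7 of 7 epicardial markers had a lower mean in CAR KO hearts, 4 of them with an unadjusted p under 0.05, and none passed the adjusted threshold of limma. Without CAR KO sample 5 all 7 were lower as well. Upk3b, a uroplakin of mesothelium, had a log2 difference of -0.46, and Aldh1a2, which makes retinoic acid, of -0.57. The list mean lay between 9.85 and 10.07 across WT samples and between 9.47 and 9.96 across CAR KO samples, and all its markers were above background. CAR KO sample 2 had an epicardial mean of 9.96, within the WT range, and a Penk signal of 7.34. In CAR KO sample 4 the epicardial mean was lower, at 9.59, and the Penk signal higher, at 8.13. Of 6 macrophage markers above background, 5 had a lower and 1 a higher mean in CAR KO hearts. Without CAR KO sample 5 all 6 were lower. The part of the epicardial and macrophage markers in the difference of Penk was not tested.

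The genes whose pattern over the 10 samples was most like that of Penk were Sncaip, Inpp4b, Meox1, Adam23 and Timp2, of 14687 genes above background compared. Their Pearson's r ran from 0.935 to 0.970 and their Spearman's rho from 0.903 to 0.976. Without WT sample 5 and CAR KO sample 5, the 2 samples farthest from the median of Penk, r ran from 0.880 to 0.954. These genes were taken for their high r, so that no p is given. Their r includes the difference between the genotypes, and r within the genotypes was not computed for them. Meox1, a homeobox factor of mesoderm, had log2 signals of 9.07 ± 0.26 in WT against 8.39 ± 0.34 in CAR KO samples. Timp2, an inhibitor of matrix metalloproteinases, was at 11.21 ± 0.09 and 10.92 ± 0.11. Sncaip, the gene of synphilin, had a log2 difference of -0.32. For Inpp4b, a phosphoinositide phosphatase, the log2 difference was -0.14. Adam23, a member of the ADAM family, had a log2 difference of -0.13. The adjusted p from limma was 1 for each of these genes.

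Of 11 other genes of the opioid system, 10 had a cluster of their own, and none of these passed the adjusted threshold of limma or had an unadjusted p under 0.05. Above background were 6 of them, 3 lower and 3 higher in CAR KO hearts, with a median log2 difference of -0.01. Their 6 confidence intervals stayed inside a 1.5-fold change, and for the remaining 4 (Pomc, Pcsk1, Oprm1 and Oprk1) the signal was too low to show a difference. Cpe, the carboxypeptidase that trims enkephalin precursors, was at 10.08 ± 0.24 in WT against 9.82 ± 0.29 in CAR KO samples. Ogfr, the gene of a nuclear receptor for met-enkephalin, had a log2 difference of 0.00. Pnoc, the precursor of nociceptin, had a log2 difference of 0.25 and its receptor Oprl1 of -0.17. Of the classical opioid receptors, Oprd1, which binds enkephalins, was above background with 8.09 ± 0.12 and 8.15 ± 0.27, whereas Oprm1 and Oprk1 were not.

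**Figure D2:**
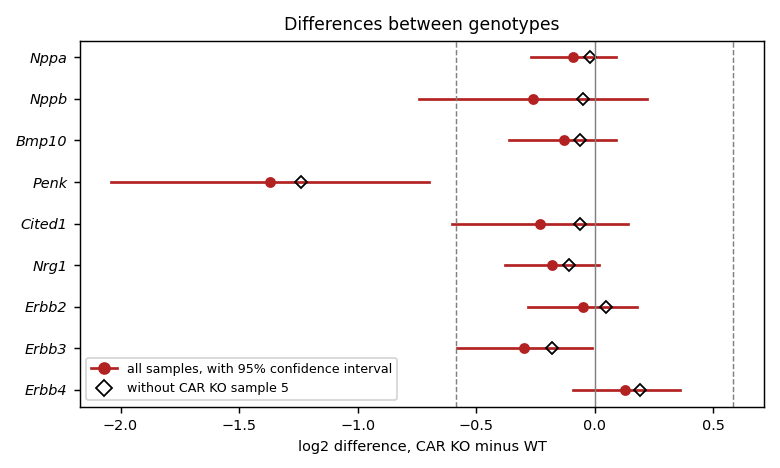
Log2 difference (CAR KO minus WT, horizontal axis) of the 9 genes with the 95% confidence interval from limma over 5 samples per genotype (red), and the difference of means without CAR KO sample 5 (open diamonds); dashed lines stand at 1.5-fold. The interval of Penk lies beyond the dashed line as a whole, those of Nppb and Cited1 cross it, and without CAR KO sample 5 most differences are closer to 0.

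The natriuretic peptide genes overlapped between the genotypes. Nppb, whose peptide is released by ventricular muscle under stretch, had log2 signals of 11.34, 11.82, 11.62, 11.75 and 11.32 in WT samples 1 to 5. In CAR KO samples 1 to 4 it was at 11.23, 11.86, 11.73 and 11.24, and CAR KO sample 5 deviated by -1.07 from the WT mean of 11.57. Thus 3 CAR KO samples lay below all WT samples, CAR KO sample 2 lay above all of them, and CAR KO sample 5 lay far below the rest. The means were 11.57 ± 0.23 in WT against 11.31 ± 0.53 in CAR KO samples. The log2 difference was -0.26 (standard error 0.22, 95% confidence interval -0.74 to 0.22, adjusted p = 1 from limma), and without CAR KO sample 5 it was -0.05. On the linear scale the interval runs from -40.0% to 16.8%, so that a 1.5-fold decrease is not outside it. Only 1.89% of the genes above background had a larger SD within the genotypes than Nppb.

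Nppa, the classical marker of chamber and trabecular muscle, had log2 signals of 13.72, 13.80, 13.84, 13.89 and 13.70 in WT samples 1 to 5 and of 13.74, 13.85, 13.77, 13.73 and 13.40 in CAR KO samples 1 to 5. Of the CAR KO samples, 4 lay within the WT range, and sample 5 lay below it. The means were 13.79 ± 0.08 and 13.70 ± 0.17, with a log2 difference of -0.09 (standard error 0.08, 95% confidence interval -0.27 to 0.09, adjusted p = 1 from limma). Without CAR KO sample 5 the difference was -0.02. The signal of Nppa lies near the highest value in the table, which is 14.49.

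Nppa and Nppb varied together between samples, with a Pearson's r of 0.94 and a Spearman's rho of 0.81 over the 10 samples (r = 0.82 without CAR KO sample 5). After the mean of each genotype was removed, r was 0.93. The genes most like Nppb among 14687 were Rasl11b, Spon2, Nppa, Ccn2 and Colq, with r from 0.931 to 0.971, and from 0.734 to 0.924 without CAR KO samples 2 and 5. They were taken for their high r, so that no p is given. Ccn2, the gene of connective tissue growth factor, had log2 signals of 10.49 ± 0.27 in WT against 10.45 ± 0.44 in CAR KO samples. Spon2, which encodes a secreted matrix protein, had a log2 difference of -0.35. Rasl11b, a small GTPase, had one of -0.13. Colq, the collagen tail of acetylcholinesterase, had a log2 difference of -0.09.

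Markers of the ventricle were lowest in the same sample as Nppb. The mean log2 signal of 6 ventricular markers spanned 11.99 to 12.16 across WT samples. Across CAR KO samples it spanned 11.58 to 12.17, and the lowest was sample 5. CAR KO samples 1 and 4 had ventricular means of 12.16 and 12.17, but Nppb signals of 11.23 and 11.24, below all WT samples. In CAR KO sample 2 the ventricular mean was 12.02 and the Nppb signal, at 11.86, the highest of all samples. All 6 of 6 had a lower mean in CAR KO hearts, 1 of them (Myl2, the ventricular myosin light chain) with an unadjusted p under 0.05, and all were above background. Without CAR KO sample 5 the mean was lower for 3 of the 6. For 10 cardiomyocyte markers the list mean spanned 12.66 to 12.98 across WT and 12.64 to 12.97 across CAR KO samples, with WT sample 5 and CAR KO sample 5 at the lower ends. Their part in the values of Nppa and Nppb was not tested.

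Receptors and processing enzymes of the natriuretic peptides differed little. Of 12 genes listed beside Nppa and Nppb, all had a cluster of their own and 11 were above background. None passed the adjusted threshold of limma, and 1 had an unadjusted p under 0.05. The median log2 difference of the 11 was -0.03, and each of their 11 confidence intervals (95%) stayed inside a 1.5-fold change. Npr3, the clearance receptor of the endocardium, was at 11.29 ± 0.22 in WT against 11.26 ± 0.28 in CAR KO samples. Corin, which cuts the precursor of atrial natriuretic peptide, had a log2 difference of -0.03 and Furin, which cuts that of brain natriuretic peptide, of -0.08. Pde2a, a phosphodiesterase activated by cyclic GMP, had a log2 difference of 0.18. Npr1, the guanylyl cyclase receptor of both peptides, was at 8.21 ± 0.11 in WT against 8.36 ± 0.04 in CAR KO samples, a log2 difference of 0.15 (standard error 0.06, adjusted p = 1 from limma). In CAR KO samples 1 to 5 it was at 8.31, 8.40, 8.35, 8.32 and 8.41, and in WT samples 1 to 5 at 8.28, 8.32, 8.26, 8.10 and 8.08. Of the CAR KO samples, 4 lay above all WT samples, and CAR KO sample 1 lay just below WT sample 2.

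Transcription factors known to act on the Nppa and Nppb promoters were also close between the genotypes. Of 15 listed, 14 had a cluster of their own and all of these were above background. Gata4 had a log2 difference of -0.09 and Tbx20 of 0.02, and Srf of -0.10. Hand1, a factor of the left ventricle, had one of 0.17 and was the 1 gene of the list with an unadjusted p under 0.05. No gene of the list passed the adjusted threshold of limma, and all 14 confidence intervals stayed inside a 1.5-fold change.

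Bmp10 and Cited1 overlapped between the genotypes as well. Bmp10 had log2 signals of 11.66 ± 0.14 in WT against 11.53 ± 0.22 in CAR KO samples. Its log2 difference was -0.13 (standard error 0.10, 95% confidence interval -0.36 to 0.09, adjusted p = 1 from limma), and -0.06 without CAR KO sample 5. Its signals spanned 11.47 to 11.83 across WT and 11.22 to 11.74 across CAR KO samples, so that the genotypes overlapped. Cited1, a coactivator of transcription present in trabecular muscle, lies on chromosome X from 102247378 to 102252181. It was at 12.17, 12.32, 12.40, 12.38 and 12.19 in WT samples 1 to 5, and at 12.35, 12.22, 11.94, 12.42 and 11.37 in CAR KO samples 1 to 5. CAR KO samples 3 and 5 lay below all WT samples and CAR KO sample 4 above them. The log2 difference was -0.23 (standard error 0.17, 95% confidence interval -0.60 to 0.14, adjusted p = 1 from limma), and -0.06 without CAR KO sample 5.

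Receptors and targets of BMP10 numbered 21, all above background, and none had an unadjusted p under 0.05. Their median log2 difference was -0.03. Bmpr1a, the myocardial type I receptor, had a log2 difference of -0.09 and Acvr2a, a type II receptor, of -0.10. Cdkn1c, the cell cycle inhibitor that BMP10 is known to keep low, was at 13.08 ± 0.03 in WT against 12.97 ± 0.17 in CAR KO samples. Of 9 relatives and partners of Cited1, Cited2 had the smallest p, with a log2 difference of 0.17 (standard error 0.07, adjusted p = 1 from limma), opposite in sign to that of Cited1. Hif1a, which competes with Cited2 for p300, had a log2 difference of -0.10.

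The receptors of neuregulin did not all differ in the same direction. Erbb3, a receptor with a weak kinase that is known from cushion mesenchyme and neural crest, lies on chromosome 10 from 128567523 to 128589635. It had log2 signals of 9.50, 9.51, 9.79, 9.69 and 9.66 in WT samples 1 to 5 and of 9.65, 9.39, 9.19, 9.55 and 8.89 in CAR KO samples 1 to 5. CAR KO samples 2, 3 and 5 lay below all WT samples, and CAR KO samples 1 and 4 lay within the WT range. The means were 9.63 ± 0.12 and 9.33 ± 0.30, with a log2 difference of -0.30 (standard error 0.13, 95% confidence interval -0.58 to -0.01, adjusted p = 1 from limma). The unadjusted p from limma was 0.0408. Without CAR KO sample 5 the difference was -0.18 and its unadjusted p 0.0855, and with all 3 liver-rich samples left out they were -0.21 and 0.0990. The mean log2 signal of 8 cushion mesenchyme markers spanned 10.79 to 11.22 across WT and 10.80 to 11.19 across CAR KO samples. Of these 8, all above background, 5 had a lower mean in CAR KO hearts and 2 an unadjusted p under 0.05, Sox9 with a log2 difference of -0.21 and Papss2 with one of -0.37. Prrx1, Prrx2 and Tbx20 had a higher mean, with log2 differences of 0.22, 0.10 and 0.02. Of 6 neural crest and neuronal markers with a cluster of their own, 5 were above background, and the list mean spanned 7.17 to 7.38 across WT and 6.92 to 7.25 across CAR KO samples. CAR KO sample 5, the lowest for Erbb3, had the highest cushion mean of the CAR KO samples (11.19) and the lowest neural crest mean (6.92). The part of these markers in the values of Erbb3 was not tested.

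Erbb4, the neuregulin receptor of the cardiomyocyte, was the 1 gene of the 9 with a higher mean in CAR KO hearts. It lies on chromosome 1 from 68031884 to 69108576. Its log2 signals were 10.29, 10.06, 10.19, 10.13 and 9.76 in WT samples 1 to 5 and 10.22, 10.36, 10.21, 10.31 and 9.99 in CAR KO samples 1 to 5. CAR KO samples 2 and 4 lay above all WT samples, and sample 5 was the lowest of each genotype. The log2 difference was 0.13 (standard error 0.10, 95% confidence interval -0.09 to 0.36, adjusted p = 1 from limma), and without WT sample 5 it was 0.05. Erbb2, on chromosome 11 from 98412484 to 98437716, was at 10.79 ± 0.10 in WT against 10.74 ± 0.24 in CAR KO samples. Its log2 difference of -0.05 (95% confidence interval -0.28 to 0.18) became 0.05 without CAR KO sample 5 and -0.02 without WT sample 1. A second cluster that names Erbb2 together with Sympk was not used.

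Nrg1, the ligand, had log2 signals of 9.02, 9.06, 9.11, 9.12 and 8.82 in WT samples 1 to 5 and of 9.02, 8.77, 8.84, 9.02 and 8.59 in CAR KO samples 1 to 5. CAR KO samples 1, 3 and 4 lay within the WT range, and CAR KO samples 2 and 5 lay below it. The log2 difference was -0.18 (standard error 0.09, 95% confidence interval -0.38 to 0.02, adjusted p = 1 from limma), and -0.11 without CAR KO sample 5. Nrg1 spans chromosome 8 from 31807452 to 32891609. Which cells gave the signal of Nrg1 was not measured. For 9 endocardial and endothelial markers, all above background, the list mean spanned 11.07 to 11.37 across WT and 10.89 to 11.34 across CAR KO samples. The lower ends were WT sample 5 and CAR KO sample 5, which were also the lowest of their genotypes for Nrg1. This was not particular to these markers or to Nrg1. Both samples were also the lowest of their genotypes for the cardiomyocyte (12.66 and 12.64) and ventricular list means (11.99 and 11.58). The same held for Nppa, Nppb, Bmp10, Erbb2 and Erbb4. The part of the endocardial and endothelial markers in the values of Nrg1 was not tested.

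**Figure D3:**
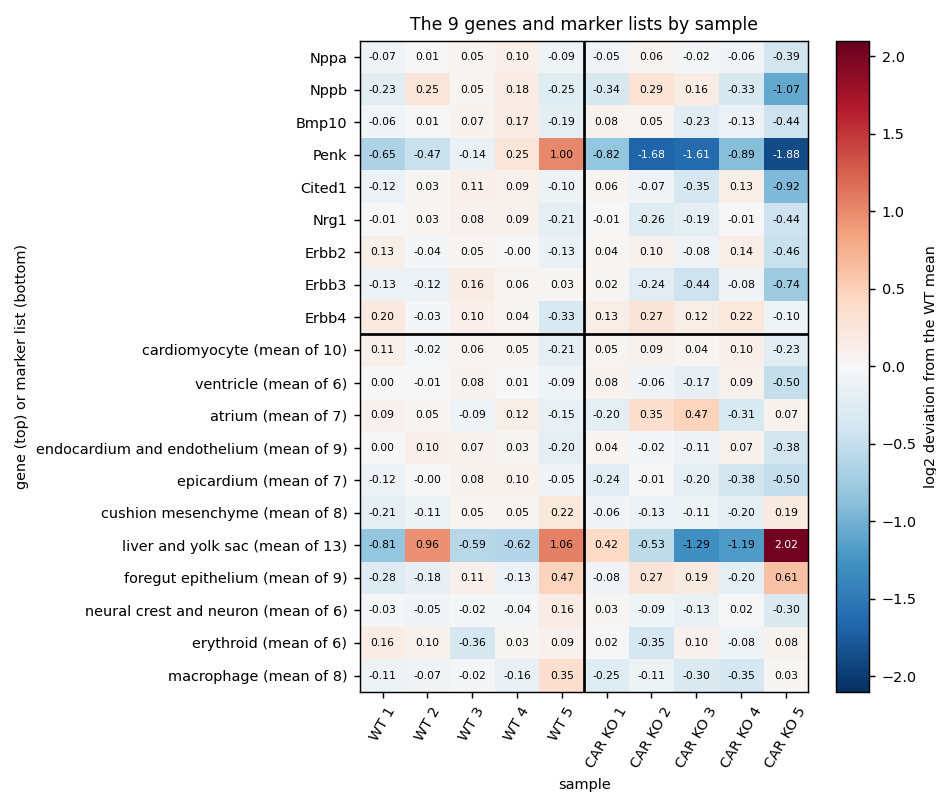
Deviation of each sample (columns) from the WT mean on the log2 scale, for the 9 genes (upper rows) and for the mean of each marker list (lower rows, with the number of genes); blue is lower and red higher. Penk is lower in all CAR KO samples. CAR KO sample 5 has the lowest mean for 5 of 11 marker lists and the highest liver list mean (10.23). The 5 are the cardiomyocyte, ventricular, endocardial, epicardial and neural crest lists (12.64, 11.58, 10.89, 9.47 and 6.92).

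Of the other ligands of the EGF and neuregulin family, 9 of 10 listed had a cluster of their own and 5 were above background. Hbegf, a heparin-binding ligand of valve development, had a log2 difference of -0.05. Epgn, the gene of epigen, was not above background. Tgfa, a ligand of the EGF receptor, was at 8.67 ± 0.13 in WT against 8.47 ± 0.13 in CAR KO samples and was the 1 ligand with an unadjusted p under 0.05. Of 27 sheddases, adaptors, kinases and feedback regulators measured, 22 had a lower and 5 a higher mean in CAR KO hearts, and the median log2 difference was -0.06, against 0.01 for all genes. The value for all genes covers those below background too, whereas all 27 lay above it. None of the 27 passed the adjusted threshold of limma, and 1, Pik3r1, had an unadjusted p under 0.05. Pik3r1, the regulatory subunit of PI3 kinase, had a log2 difference of -0.20. Etv4, a factor induced by ERK signalling, also had one of -0.20. Akt1 had a log2 difference of -0.11, and Nedd4, a ubiquitin ligase, of -0.02.

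Wider lists of trabecular and compact muscle differed little, with 24 of 26 and, among genes above background, 9 of 10 confidence intervals inside a 1.5-fold change. The share of all genes with such an interval was not computed, here or for the lists above. Of 26 genes of trabecular muscle and its endocardial signals, among them Notch1, Dll4 and Efnb2, none passed the adjusted threshold and 1, Hand1, had an unadjusted p under 0.05. With 15 lower and 11 higher, their median log2 difference was -0.00. Cdh2, which encodes N-cadherin, had a log2 difference of -0.00. Mycn, which drives growth of the compact wall, had a log2 difference of 0.10. Of 11 genes of compact muscle, Ccnd1, the gene of cyclin D1, was the 1 with an unadjusted p under 0.05, at 11.59 ± 0.07 in WT against 11.43 ± 0.05 in CAR KO samples. Hey2, a Notch-related factor of the compact wall, had a log2 difference of -0.12.

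**Figure D4:**
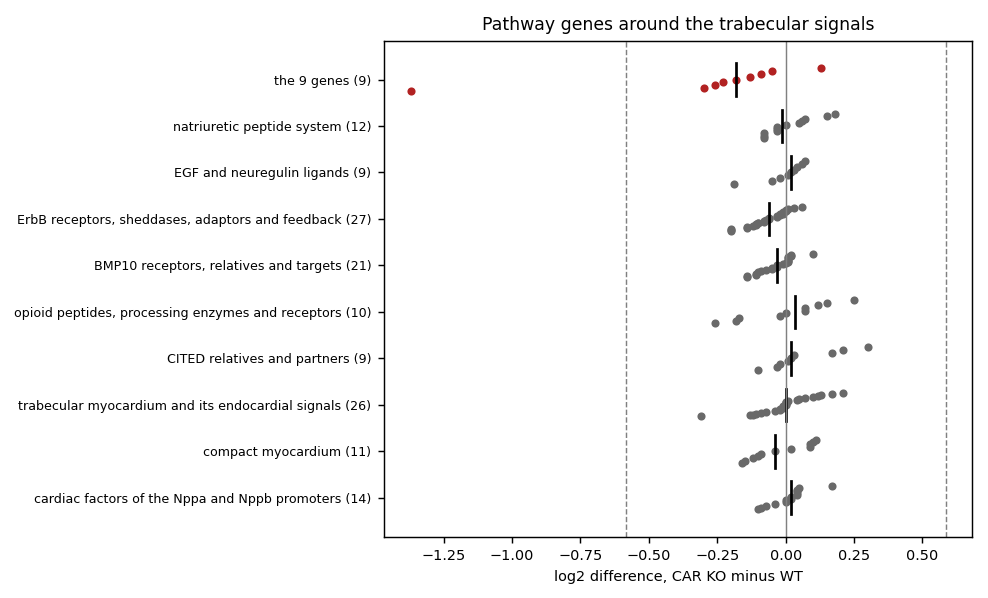
Log2 difference (CAR KO minus WT, horizontal axis) of each gene, for the 9 genes (red) and 9 pathway lists (grey, with the number of genes measured); black ticks mark medians and dashed lines a 1.5-fold change. Penk lies far from all other points, and the medians of the lists run from -0.06 to 0.04.

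Among the 9 genes, 24 of 36 pairs had a Pearson's r above 0.5 over the 10 samples, with a median of 0.68. Without CAR KO sample 5 the median was 0.26 and 10 pairs remained above 0.5. Erbb3 and Cited1 were at r = 0.92 with and 0.79 without that sample, and Erbb2 and Erbb4 at 0.67 and 0.84. Penk and Erbb3 were at 0.78 and 0.75, and Penk and Erbb4 at -0.54 and -0.82. These r values include the difference between the genotypes. After the mean of each genotype was removed, r over the 10 samples was 0.64 for Penk and Erbb3 and -0.41 for Penk and Erbb4. It was 0.93 for Erbb3 and Cited1 and 0.81 for Erbb2 and Erbb4. The samples share these arrays and the tissues named above, and the values are given as a description.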

How the data were processed

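Levels of mRNA were measured in 5 WT and 5 CAR KO samples, each of 3 pooled E10.5 hearts, and samples were grouped by their titles. The authors deposited a table of log2 signals per transcript cluster. The submitters' processing notes name MAS5, with the steps behind the table not given in the sources used here. MAS5 relies on mismatch probes, which this array design does not pair with its probes, so that the normalization of the values is unknown. Values were used as deposited. Of 35556 rows, 6612 control rows were left out, which left 28944 clusters. Gene symbols came from the platform annotation, updated by Entrez identifier for 21698 of 21789 clusters that name 1 gene. Clusters of several genes (1621) or of none (5534) were not named. The background level was the 95th percentile of receptor clusters.

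For CAR KO against WT, a linear model was fitted to every cluster with lmFit, and its variances were moderated with eBayes, without a trend or a filter (limma 3.58.1, R 4.3.3). Benjamini-Hochberg adjustment ran over all clusters at a threshold of 0.05, and the procedure was tested on simulated data. The genes and lists were chosen with earlier results of these data known. In each list the 2 brightest genes and the 2 with the smallest p were to be named, together with the 9 genes, the 5 genes most like Penk and Nppb, and Cxadr. Marker genes, Corin, Pomc, Pcsk1, Oprd1, Oprm1, Oprk1, Notch1, Dll4, Efnb2, Uty and Eif2s3y were named in addition, after their values were seen. As alternatives, arrays were quantile normalized or centred on their medians, dim clusters were filtered (40th percentile), samples were weighted or left out, and the sample number was set as a block. The methods' t-test and a robust fit with an intensity trend were run too. The number of arrays limits the precision. Figures were drawn with matplotlib 3.10.9.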

Additional observations from a re-analysis of the deposited data

Results flagged for a closer look

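In 18 groups of 5 samples examined, 1 for each gene and genotype, a far sample was found in 1, and chance alone flags about 1 group in 20. Nppa was lowest in CAR KO sample 5, with a gap to the next sample of 0.732 of the range of the CAR KO samples. This is the sample with the highest liver and the lowest ventricular marker mean, and their part in the value was not tested.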

How the results depend on the processing

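None of the 9 genes was called under any of the 18 alternatives, and the difference of each kept its sign except that of Erbb2, which ran from -0.10 to 0.048 with samples left out in turn and was above 0 without CAR KO sample 5. Array weights called 2 clusters over the array instead of 1. The genes of the 9 with an unadjusted p under 0.05 numbered 1 instead of 2 with the methods' t-test, with array weights and with the 3 liver-rich samples left out, and 1 to 3 with samples left out in turn. Penk had an unadjusted p under 0.05 under all 18 alternatives, Erbb3 under 9 and Nrg1 under 4. With samples left out in turn the log2 difference ran from -1.53 to -1.12 for Penk and from -0.39 to -0.05 for Nppb, whose smallest value came without CAR KO sample 5. Without the 3 liver-rich samples, an alternative chosen with the data known, the 2 genes were at -1.07 and -0.05. Over all clusters, an unadjusted p under 0.05 was found for 696, against 1811 with array weights, 1304 with the replicate block, 1214 without the liver-rich samples and 411 without WT sample 4. In the replicate block fit, 1 cluster and 0 of the 9 genes were called, and 3 of the 9, Penk, Nrg1 and Erbb3, had an unadjusted p under 0.05. For Nrg1 the unadjusted p from limma was 0.0187 in that fit and 0.078 without the block. The labels do not say that a number shared by WT and CAR KO marks a litter or a batch. Deviations of a WT and a CAR KO sample with 1 number had correlations between 0.073 and 0.561. For 4 of 5 CAR KO samples the closest WT sample had that number, which is a hint that the design does not give. Since each of the 9 genes has 1 cluster of its own, the mean over clusters in place of the brightest gives the same values and was not run. The cause of these changes was not tested.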

Other observations

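Npr1, the receptor of both natriuretic peptides, had the lowest correlation with Penk of all 14687 genes above background that were compared, with a Pearson's r of -0.941 and a Spearman's rho of -0.964 over the 10 samples. Without WT sample 5 and CAR KO sample 5 r was -0.876. The pair was found by ranking all genes, so that no p is given. Its r includes the difference between the genotypes, and r within the genotypes was not computed for it.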
